A study of Mus musculus with 2 samples.

Results

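Cytosolic ribosomal protein genes encode the proteins of the large (Rpl) and small (Rps) subunits of the ribosome that translates nuclear-encoded messages. They were taken here as every gene whose symbol has the form of a ribosomal protein name (Rpl or Rps with a number, Rplp0 to Rplp2, and Rpsa), without names that carry -ps and without the S6 kinases. This gave 90 genes of 55357 in the matrix, 54 named for the large and 36 for the small subunit. Among them Rps4l, Rpl6l, Rpl32l, Rps12l1, Rps3a2 and Rps3a3 are annotated as processed pseudogenes without a coding length. Rps4l and Rpl6l are among the members tested between cell types below. The naming rule itself uses no measured value, but the family was chosen with earlier results of these data known. All 90 had at least 1 UMI (unique molecule) in the kept cells, and 9 were under 10 CPM (a UMI count divided by all UMIs of the cell type or library, on the usual counts-per-million-UMIs scale): Rpl10l, Rpl39l, Rpl3l, Rps4l, Rpl6l, Rpl32l, Rps12l1, Rps3a2 and Rps3a3. A further 322 rows with -ps in the name held 0.0928% of UMIs in the knockdown-labelled library and 0.0977% in the WT-labelled library, and were left out.

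The cells came from tumours of RENCA, a mouse kidney carcinoma line, grown in the kidney of BALB/c mice. The first library was labelled SMYD3 knockdown (below, the knockdown-labelled library), for tumours of RENCA cells with a knockdown of the lysine methyltransferase gene Smyd3, and the second was labelled WT (the WT-labelled library), for control tumours; beside a value, knockdown and WT stand for the libraries of these labels. The stated sort was for CD45+ immune cells, but the cell type given for both samples is epithelial, and whether a library pooled several mice, and the knockdown reagent, are not given in the sources used here. There was 1 library per label, so no difference between the labels had a replicate check, label and library cannot be told apart, and intervals between libraries cover counting error only. Smyd3 stood at 20.9 CPM (29 UMIs) in tumour-like cells of the knockdown-labelled library and at 16.7 CPM (28 UMIs) in those of the WT-labelled library, and the labels are used here as names of the libraries. In monocyte-macrophage cells Smyd3 was at 10.3 CPM (knockdown, 815 UMIs) and 9.42 CPM (WT, 720 UMIs).

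The kept cells numbered 9487 with 94974583 UMIs in the knockdown-labelled library and 8662 with 90693804 UMIs in the WT-labelled library. Cell types were assigned by gates on marker genes, and a cell type name below means the cells inside that gate. The gates held 1630 (knockdown) and 920 (WT) neutrophils, 6319 (knockdown) and 6340 (WT) monocyte-macrophage cells, 182 (knockdown) and 233 (WT) dendritic cells, 95 (knockdown) and 124 (WT) T cells and 52 (knockdown) and 71 (WT) tumour-like cells. Ptprc, which encodes CD45, was at 331 CPM (knockdown) and 365 CPM (WT) in monocyte-macrophage cells and at 7.95 CPM (knockdown) and 6.58 CPM (WT) in tumour-like cells. Pancreatic acinar-like cells (73) were found in the knockdown-labelled library and none in the WT-labelled library.

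Ribosomal protein messages are among the most abundant of a growing cell, and most ribosomal proteins occur in a single copy per ribosome, so their genes are usually expressed together. Their messages carry a terminal oligopyrimidine tract, a run of C and T that begins at the first base and through which mTOR signalling controls their translation. Short-lived mature neutrophils are known to carry little RNA and few ribosomes, while lymphocytes keep a pool of ribosomal protein messages even at rest.

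The start-site sequences of members on which the results below turn are shown first, because the tract is a feature of the genes that the naming rule did not use. RefSeq starts (build GRCm38.p6) were listed for 65 of the 90 genes, as 77 starts. A run of at least 8 pyrimidines within 10 bases of the annotated start, on the strand of the transcript, was present at 22 of 77 starts of ribosomal protein genes (28.6%) and at 7.38% of the 32774 starts of all other genes. On the opposite strand the same run was present at 2 of the 77 starts (2.60%) and at 8.46% of the other starts. A start at C followed by 4 pyrimidines, which overlaps the first pattern, was listed for 14 of 77 (18.2%) against 2.47%. In the stretches below, 25 bases before to 20 bases from the start, 5′ to 3′, capitals mark the longest pyrimidine run that touches the window. Where a gene had several listed starts, the one with the longest run in the window is shown. This choice favours a run at the start shown. The stretches are at chr3:90213629-90213673, minus strand (Rps27), chr9:66946061-66946105, plus strand (Rps27l), chr11:114668555-114668599, plus strand (Rpl38), chr16:33056457-33056501, plus strand (Rpl35a), chr7:3704016-3704060, plus strand (Rps9), chr3:28805483-28805527, plus strand (Rpl22l1) and chr17:33824543-33824587, minus strand (Rps28).
Rps27: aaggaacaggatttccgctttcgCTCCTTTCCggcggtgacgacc
Rps27l: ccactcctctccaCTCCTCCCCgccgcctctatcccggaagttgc
Rpl38: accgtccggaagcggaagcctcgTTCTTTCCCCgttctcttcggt
Rpl35a: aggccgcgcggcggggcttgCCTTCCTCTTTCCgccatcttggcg
Rps9: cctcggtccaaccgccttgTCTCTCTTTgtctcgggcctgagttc
Rpl22l1: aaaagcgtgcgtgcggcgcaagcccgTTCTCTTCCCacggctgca
Rps28: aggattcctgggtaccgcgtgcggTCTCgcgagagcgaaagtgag
The run spanned the annotated start shown for Rps27, Rpl38, Rpl35a and Rps9. In Rps27l it ended upstream of the start, in Rpl22l1 it began after it, and the Rps28 start listed had a run of 4.

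The share of all UMIs that came from the 90 genes separated the cell types, in the same order in both libraries for the 5 larger gates. It was highest in lymphocytes, intermediate in myeloid antigen-presenting cells and tumour-like cells, and lowest in neutrophils. T cells had a share of 16.2% in the knockdown-labelled library (95% exact Clopper-Pearson interval 16.0 to 16.3) and 16.9% in the WT-labelled library (16.8 to 17.0). Dendritic cells had 13.3% (knockdown, 13.3 to 13.4) and 14.3% (WT, 14.2 to 14.3). Monocyte-macrophage cells had 11.0% (knockdown) and 10.8% (WT), tumour-like cells 9.58% (knockdown, 9.53 to 9.62) and 9.09% (WT, 9.04 to 9.13), and neutrophils 2.96% (knockdown, 2.94 to 2.98) and 2.92% (WT, 2.89 to 2.95). The remaining gates held few cells: B cells (6 knockdown and 15 WT cells) at 16.1% (knockdown) and 20.2% (WT), NK cells (17 knockdown and 33 WT) at 16.2% (knockdown) and 14.8% (WT), fibroblasts (6 knockdown and 15 WT) at 10.6% (knockdown) and 12.8% (WT), and the acinar-like cells of the knockdown-labelled library at 6.04%.

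**Figure D1:**
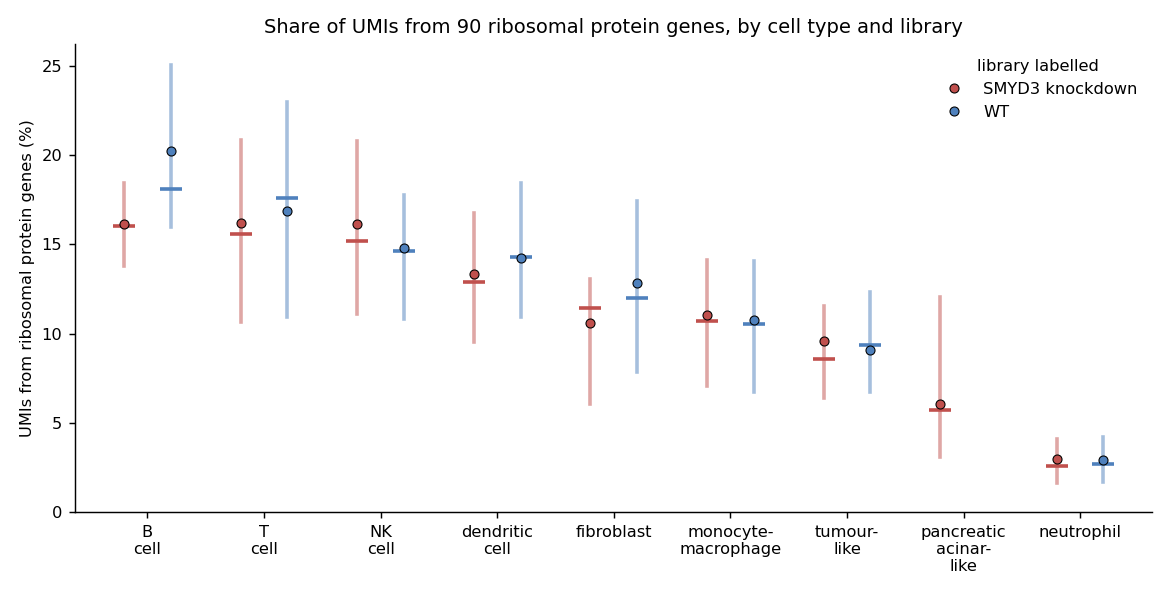
Share of UMIs from the 90 ribosomal protein genes (vertical axis, percent) in each marker-gated cell type (horizontal axis), for the knockdown-labelled library (red, left of each pair) and the WT-labelled library (blue, right). Dots are sums over all cells, dashes the median cell and lines the 10th to 90th percentile of cells; neutrophils sit at 2.96% (knockdown) and 2.92% (WT), below all other types, and no acinar-like cells were found in the WT-labelled library.

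Neutrophils devoted 0.269 times the monocyte-macrophage share to these genes in the knockdown-labelled library and 0.271 times in the WT-labelled library. Per cell the gap was wider, because neutrophils also held fewer UMIs: a neutrophil had on average 44.9 UMIs (knockdown) and 41.2 UMIs (WT) from the 90 genes, against 1385 (knockdown) and 1297 (WT) in a monocyte-macrophage cell. The middle 80% of neutrophils ran from 1.62% to 4.10% (knockdown) and from 1.70% to 4.22% (WT), and that of monocyte-macrophage cells from 7.03% to 14.1% (knockdown) and from 6.74% to 14.1% (WT), so these ranges did not meet. Free RNA in the droplets can add to such a low share. The C1q genes C1qa, C1qb and C1qc, macrophage products that neutrophils should lack, made up 0.118% (knockdown) and 0.156% (WT) of neutrophil UMIs, at a median of 1411 UMIs (knockdown) and 1332 UMIs (WT) per cell, against 0.847% (knockdown) and 0.813% (WT) of monocyte-macrophage UMIs, at a median of 11846 (knockdown) and 11353.5 (WT). Monocyte-macrophage RNA in the amount that C1q marks would carry a ribosomal protein share of 1.53% (knockdown) and 2.06% (WT), against the 2.96% (knockdown) and 2.92% (WT) measured in neutrophils. Barcodes that failed the filters, which held a median of 679 UMIs (knockdown) and 770 UMIs (WT), had a share of 3.25% (knockdown) and 3.09% (WT). Cells in the neutrophil gate carried a median of 4 of the 12 monocyte-macrophage markers. The C1q genes are among these 12, and the gate admitted neutrophils with at most 6 of them. The gate itself thus limited the C1q measured, and how far it lowered the C1q-matched share was not tested. The part of free RNA in the neutrophil value was not tested. In T cells, whose gate admitted at most 8 of the 12, the same C1q measure would bring a share of 1.07% (knockdown) and 1.04% (WT). The share measured was 16.2% (knockdown) and 16.9% (WT).

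Within the larger types the share varied between subsets. Macrophages with Lyve1 and Cd163, markers of resident tissue macrophages, had the lowest share of the myeloid subsets, 9.02% (knockdown) and 9.09% (WT). Classical monocytes had 11.6% in both libraries, macrophages with Arg1 and Spp1 had 11.2% (knockdown) and 11.0% (WT), and the few with Mmp12 and Gpnmb (25 knockdown and 50 WT cells) had 12.6% (knockdown) and 12.5% (WT). Among dendritic cells, those with the cross-presenting markers Xcr1 and Clec9a had 14.3% (knockdown) and 15.0% (WT), those with Cd209a 11.8% (knockdown) and 12.5% (WT), and those with the migratory markers Ccr7 and Fscn1 11.4% (knockdown) and 13.1% (WT). T cells with CD8 and no Cd4 UMIs had 17.6% (knockdown) and 17.5% (WT), and T cells with Cd4 and no CD8 UMIs, 22 in each library, had 13.4% (knockdown) and 16.1% (WT). Cycling monocyte-macrophage cells differed little from those with no cycling marker, at 11.0% (knockdown) and 10.6% (WT) against 11.0% (knockdown) and 10.8% (WT). Of 4 equal groups of monocyte-macrophage cells by depth, the shallowest, with a median of 4741.5 UMIs (knockdown) and 4929 UMIs (WT), had 9.64% (knockdown) and 9.51% (WT), and the other 3 ran from 10.7% to 11.3% over both libraries.

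Between the libraries the share of the whole family differed little. The knockdown-over-WT ratio of the share was 1.02 in monocyte-macrophage cells (95% conditional binomial interval 1.022 to 1.024, counting error only), 1.01 in neutrophils (1.00 to 1.03), 0.936 in dendritic cells (0.932 to 0.941), 0.958 in T cells (0.947 to 0.968) and 1.05 in tumour-like cells (1.05 to 1.06). The tumour-like direction depended on the weight of single cells, since the median tumour-like cell had 8.57% in the knockdown-labelled library and 9.38% in the WT-labelled library. The neutrophil direction turned in the same way, with median cells at 2.59% (knockdown) and 2.69% (WT). Large-subunit UMIs per small-subunit UMI were lower in the knockdown-labelled library in each of these types, at 1.08 (knockdown) against 1.13 (WT) in monocyte-macrophage cells, 0.934 (knockdown) against 0.960 (WT) in neutrophils, 1.00 (knockdown) against 1.05 (WT) in dendritic cells, 0.994 (knockdown) against 1.04 (WT) in T cells and 1.23 (knockdown) against 1.30 (WT) in tumour-like cells.

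Behind this small change of the total, single genes differed between the libraries in a pattern that recurred in each cell type: the genes with the shortest coding sequences were lower in the knockdown-labelled library. In monocyte-macrophage cells 81 members passed the minimum of 30 UMIs over both libraries and a mean of 10 CPM. Of these, 6 were at least 1.5-fold lower, where 1.07% of the 7765 genes tested were, and 1 was at least 1.5-fold higher, where 0.348% were. The median log2 ratio of the 81 was 0.07, beside -0.02 for all genes tested, and 50 of the 81 lay above 1. The 6 lower genes were Rps28, Rpl38, Rpl35a, Rps29, Rps27 and Rps21.

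Rps28, a small-subunit protein beside the message exit, had 712 CPM in monocyte-macrophage cells of the knockdown-labelled library, against 1251 CPM in those of the WT-labelled library, a ratio of 0.569 (0.563 to 0.575). It was at 916 CPM (knockdown) against 1853 CPM (WT) in dendritic cells, 206 CPM (knockdown) against 336 CPM (WT) in neutrophils, 1103 CPM (knockdown) against 2010 CPM (WT) in T cells and 1271 CPM (knockdown) against 2206 CPM (WT) in tumour-like cells. Rps28 was therefore lower under the knockdown label in 5 of 5 types, with ratios between 0.494 and 0.611. Rpl38, a large-subunit protein whose loss in mice alters the axial skeleton, had 527 CPM (knockdown) against 918 CPM (WT) in monocyte-macrophage cells, a ratio of 0.575 (0.568 to 0.582), and ratios of 0.501 in dendritic cells, 0.563 in neutrophils, 0.535 in T cells and 0.578 in tumour-like cells. Rpl35a, a large-subunit protein mutated in some patients with Diamond-Blackfan anaemia, had ratios of 0.597, 0.544, 0.595, 0.622 and 0.599 in the same order of types. Rps29, a zinc-binding small-subunit protein, had 1774 CPM (knockdown) against 2908 CPM (WT) in monocyte-macrophage cells and a ratio of 0.610 (0.606 to 0.614).

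Rps2, a small-subunit protein, was higher under the knockdown label, at 1354 CPM (knockdown) against 968 CPM (WT) in monocyte-macrophage cells, a ratio of 1.40 (1.39 to 1.41), and had 1.32 in dendritic cells, 1.40 in T cells and 1.53 (1.44 to 1.62) in tumour-like cells.

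In dendritic cells 10 of 81 members were at least 1.5-fold lower, beside 4.37% of all genes tested, and 1 was higher, beside 2.56%. The members furthest down were Rps28, Rpl38, Rpl35a, Rps29 and Rps27. In neutrophils 6 of 82 were lower, beside 8.81% of all genes tested, and 5 were higher, beside 4.55%. The lowest neutrophil ratios were those of Rpl38, Rpl35a, Rps29, Rpl35 (0.607) and Rps28, and the members above 1.5-fold included Rpl3l, Rpl13a (1.73, 1.21 to 2.51), Rpl29 (1.72, 0.855 to 3.74) and Rpsa (1.56, 1.34 to 1.82), so the Rpl29 interval reached below 1. T cells and tumour-like cells, with fewer than 100 cells in at least 1 library, were described after the other types had been seen. In T cells 10 of 81 were lower, beside 10.6% of all genes tested, and 1 higher, beside 9.18%. In tumour-like cells 5 of 82 were lower, beside 7.34%, and 1 was higher, beside 5.21%. The neutrophil, T cell and tumour-like shares of lower members thus stood near or below their background, while the members with the lowest ratios largely recurred. Over all kept cells, 6 of 81 members were at least 1.5-fold lower, beside 1.25% of all genes tested, and 1 was higher, beside 0.657%.

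Across the 5 types, 81 members passed the minimum in every type. Of these, 5 were at least 1.5-fold lower in all 5, which is 6.17%, beside 8 of 3335 other genes (0.240%). They were Rpl35a, Rpl38, Rps27, Rps28 and Rps29. Lower in all 5 types by any amount were 21 members (25.9%, beside 12.5% of other genes) and higher in all 5 were 26 (32.1%, beside 7.23%). The 5 types share their libraries, so these are not independent observations. The other genes were not matched to the members on level.

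**Figure D2:**
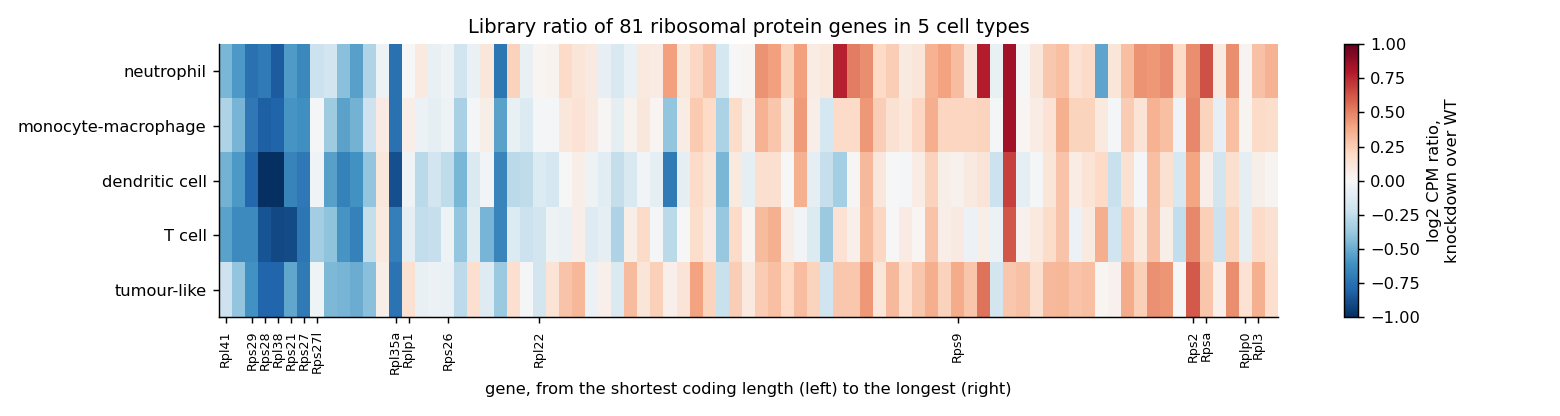
Log2 CPM ratio, SMYD3 knockdown label over WT label (colour, red higher and blue lower), of the 81 ribosomal protein genes that passed the minimum in all 5 cell types. Columns are genes, from the shortest coding length on the left, and rows are cell types; the columns at the left end are blue in every row except the nearly white Rps27l, and Rpl35a is a further blue column. Names are printed for 16 genes described in the text.

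Coding length was read from GENCODE vM21 for 84 of the 90 genes, since the processed pseudogenes have none. The ratio between libraries was larger at longer coding length in each type. Across members, Pearson's r between log2 coding length and log2 ratio was 0.653 in monocyte-macrophage cells (n = 81 genes), 0.688 in neutrophils (82), 0.637 in dendritic cells (81), 0.682 in T cells (81) and 0.660 in tumour-like cells (82); Spearman's rho ran from 0.650 to 0.715. These points share the libraries and their depth, and genes are not replicates, so no p is given. With GC content of the transcript rho ran from 0.00325 to 0.0752. Among 7462 other genes in monocyte-macrophage cells the sign was opposite, with r at -0.168 and rho at -0.328. It was also opposite among other genes in dendritic cells (r -0.152, rho -0.192) and neutrophils (r -0.114, rho -0.15). Values were nearer 0 in T cells (r -0.0513, rho -0.0656) and tumour-like cells (r 0.0046, rho -0.0074).

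Of the members with a coding sequence under 300 bases, 10 passed the minimum, and Rpl39l, with 153 bases, did not. The 10 were lower under the knockdown label in all 5 types, 10 of 10 each time. Median ratios were 0.678 in monocyte-macrophage cells, 0.672 in neutrophils, 0.628 in dendritic cells, 0.644 in T cells and 0.712 in tumour-like cells. Together they held 1.20% of monocyte-macrophage UMIs in the knockdown-labelled library and 1.71% in the WT-labelled library. The 40 members of at least 300 and under 500 bases had a median ratio of 1.03 in monocyte-macrophage cells and held 5.54% (knockdown) and 5.41% (WT). The 31 members of 500 bases or more that passed the minimum there had a median of 1.16, lay above 1 in 27 of 31, and held 4.27% (knockdown) and 3.64% (WT). In the monocyte-macrophage total, the larger share of the members of 300 bases or more thus more than made up for the smaller share of the shorter ones. Members of at least 300 and under 500 bases held less under the knockdown label in dendritic cells, at 6.73% (knockdown) and 7.19% (WT). The same held in T cells, at 8.43% (knockdown) and 8.74% (WT), while members of 500 bases or more held more in both types. Other genes with a coding sequence under 300 bases lay on both sides of 1 in every type. Above 1 were 116 of 198 in monocyte-macrophage cells (median ratio 1.02), 70 of 180 in neutrophils (0.935), 98 of 198 in dendritic cells (median 1.00), 66 of 156 in T cells (0.966) and 70 of 200 in tumour-like cells (0.932). Of the members with an annotated transcript of 400 bases or less, 4 of 4 were lower in each type, with median log2 ratios between -0.70 and -0.56. Of the other genes of that length, 6 of 6 were lower in monocyte-macrophage cells (median log2 ratio -0.38), 3 of 5 in neutrophils (-0.61), 4 of 4 in dendritic cells (-0.42), 2 of 4 in T cells (0.03) and 4 of 4 in tumour-like cells (-0.45). The part of fragment or insert size, which the deposited counts do not record, was not tested.

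**Figure D3:**
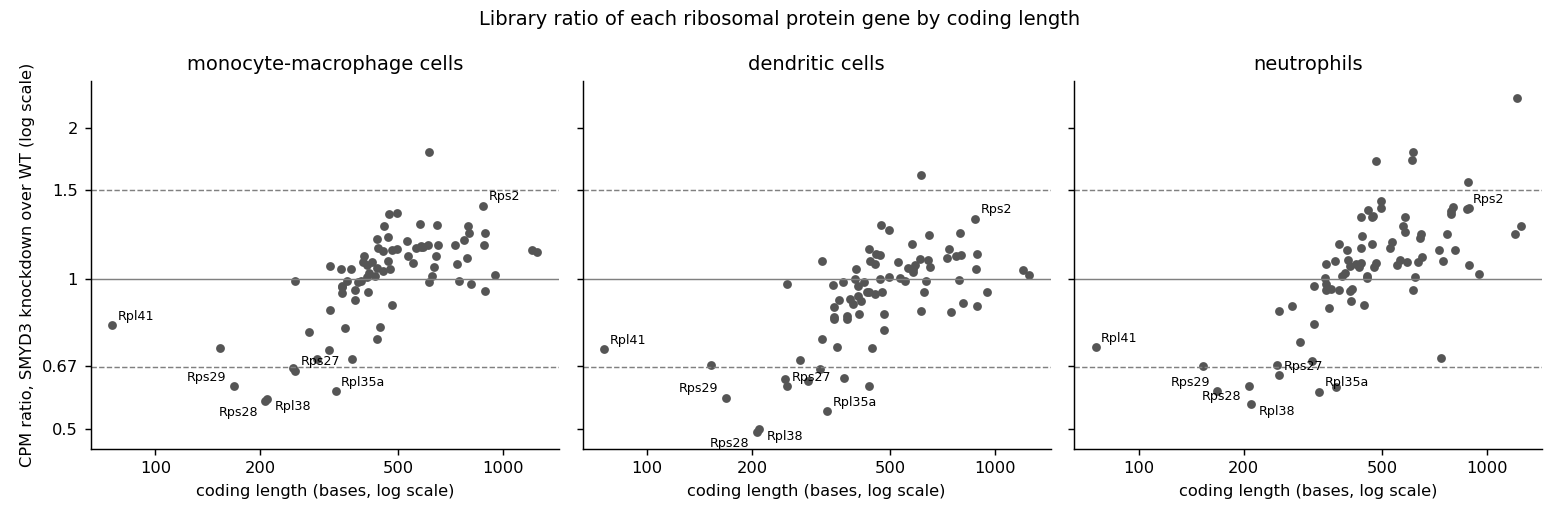
CPM ratio, SMYD3 knockdown label over WT label (vertical axis, log scale), of each ribosomal protein gene against its coding length in bases (horizontal axis, log scale) in monocyte-macrophage cells, dendritic cells and neutrophils. Dashed lines mark 1.5-fold either way. Genes that did not pass the minimum are not drawn, and the drawn genes under 300 bases lie below 1 in all 3 panels.

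The coding sequences of 3 members under 300 bases are shown. They are the shortest of the family and 2 of the genes furthest down in the knockdown-labelled library. Rpl41 (chr10:128548114-128549305, minus strand, whole gene), the smallest ribosomal protein, has 75 coding bases without the stop codon, Rps28 (chr17:33819027-33824562, minus strand) has 207 and Rpl38 (chr11:114668524-114672331, plus strand) has 210, in GENCODE vM21 on GRCm38.
Rpl41: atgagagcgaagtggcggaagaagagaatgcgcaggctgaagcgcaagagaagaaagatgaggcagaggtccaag
Rps28: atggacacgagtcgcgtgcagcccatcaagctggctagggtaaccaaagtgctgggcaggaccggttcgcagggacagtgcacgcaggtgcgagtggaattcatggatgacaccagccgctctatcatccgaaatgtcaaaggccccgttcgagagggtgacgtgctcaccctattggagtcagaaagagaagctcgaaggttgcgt
Rpl38: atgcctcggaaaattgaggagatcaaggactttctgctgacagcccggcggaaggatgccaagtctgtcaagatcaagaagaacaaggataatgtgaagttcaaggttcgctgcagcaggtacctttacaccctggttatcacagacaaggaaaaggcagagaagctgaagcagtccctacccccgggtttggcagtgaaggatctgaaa
Rpl41 had 649 CPM in neutrophils of the knockdown-labelled library and 891 CPM in those of the WT-labelled library, a ratio of 0.729 (0.675 to 0.787), and 0.691 (0.633 to 0.754) in T cells, less far from 1 than Rps28 and Rpl38 although its coding sequence is shorter.

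Gene groups close to the ribosome were set beside the family. The median log2 ratio of all genes tested was -0.02 in monocyte-macrophage cells, -0.08 in neutrophils and -0.03 in dendritic cells. It was -0.01 in T cells and -0.02 in tumour-like cells. Of the ribosomal proteins whose names fall outside the rule, Fau, a ubiquitin-like fusion to a small-subunit protein, had a knockdown-over-WT ratio of 1.00 (0.998 to 1.01) in monocyte-macrophage cells, and Rack1, a scaffold on the small subunit, 1.11 (1.10 to 1.12). Of 15 translation factors and related genes whose messages also carry the pyrimidine tract, 15 lay above 1 in monocyte-macrophage cells and 15 in neutrophils, while 5 of 15 did in dendritic cells. Eef1g, a subunit of the elongation factor that delivers transfer RNA, led them at 1.21 (1.19 to 1.23) in monocyte-macrophage cells, and none of the 15 passed 1.5-fold there. Mitochondrial ribosomal proteins lay above 1 in 70 of 76 tested in monocyte-macrophage cells, with a median log2 ratio of 0.15, and none passed 1.5-fold. Above 1 were also 54 of 75 in dendritic cells and 39 of 53 in T cells, but only 22 of 47 in neutrophils and 35 of 77 in tumour-like cells. Ribosome biogenesis genes lay above 1 in 16 of 20 in monocyte-macrophage cells, led by Myc at 1.36 (1.31 to 1.41), and in 6 of 20 in dendritic cells, where Nolc1, a nucleolar chaperone, was at 0.653 (0.533 to 0.797). Hosts of small nucleolar RNAs lay above 1 in 2 of 7 in monocyte-macrophage cells, and Snhg8 was furthest from 1 there at 0.746 (0.717 to 0.775). Above 1 were 1 of 5 hosts in neutrophils, 1 of 7 in dendritic cells, 5 of 6 in T cells and 5 of 7 in tumour-like cells.

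Cell types were then compared gene by gene, with UMI sums per type and library and both libraries as replicates of a type. In edgeR's quasi-likelihood test with Benjamini-Hochberg adjustment over 10935 genes, 79 of the 84 members tested were lower in neutrophils than in monocyte-macrophage cells and 3 were higher. Of all genes, 39.6% were lower and 34.6% higher. The median log2 fold change of the 84 was -1.03, beside -0.28 for all genes, after TMM scaling. Scaling mattered here: on total UMIs alone the median of all genes moved to -1.20 and that of the members to -1.94, 83 members were lower and 1 was higher. The fit had 2 residual degrees of freedom, and the test moderated each gene's spread towards that of all genes, with 13.26 prior degrees of freedom. The adjusted p-values thus measure only the spread between these 2 libraries, largely as pooled over genes. They do not measure a spread between animals.

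Across 82 members, the relation between coding length and the neutrophil log2 fold change was weaker by Pearson's r with log2 length, at -0.158, than by Spearman's rho, at -0.467. Rpl3, the member furthest below its monocyte-macrophage level and a large-subunit protein near the peptidyl transferase centre, had 149 CPM in neutrophils of the knockdown-labelled library and 122 CPM in those of the WT-labelled library, against 1209 CPM (knockdown) and 1059 CPM (WT) in monocyte-macrophage cells. Its log2 fold change was -2.13 ± 0.14 (SE, adjusted p = 1.7e-09 in edgeR's test). Rpl10a at -1.96, Rpl4 at -1.94, Rps4x at -1.92 and Rpsa, the laminin receptor homologue of the small subunit, at -1.91 came next, each past the adjusted threshold in edgeR's test. Rpl3 in neutrophils stood at 0.889 times (knockdown) and 0.601 times (WT) the level that C1q-marked monocyte-macrophage RNA would bring, so its neutrophil level was not above that amount in either library.

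Rps27 and Rps9 were the exceptions in the other direction. Rps27, a zinc-finger protein of the small subunit, had 725 CPM (knockdown) and 1132 CPM (WT) in neutrophils against 846 CPM (knockdown) and 1292 CPM (WT) in monocyte-macrophage cells, and Rps9, a small-subunit protein at the message entry channel, had 1750 CPM (knockdown) and 1412 CPM (WT) against 2101 CPM (knockdown) and 1810 CPM (WT). On the TMM scale both were higher in neutrophils, Rps27 by 0.70 ± 0.13 log2 (SE, adjusted p = 0.00013 in edgeR's test) and Rps9 by 0.61 ± 0.14 (adjusted p = 0.0014), while their CPM was lower, at 0.857 times (knockdown) and 0.876 times (WT) for Rps27 and 0.833 times (knockdown) and 0.780 times (WT) for Rps9, so the direction turned with the scaling. Measured within the ribosomal protein pool, which no scaling affects, Rps27 made up 2.45% (knockdown) and 3.87% (WT) of the family's UMIs in neutrophils against 0.768% (knockdown) and 1.20% (WT) in monocyte-macrophage cells. Rps9 made up 5.91% (knockdown) and 4.83% (WT) against 1.91% (knockdown) and 1.68% (WT). Rps27 stood at 6.17 times (knockdown) and 4.57 times (WT) and Rps9 at 5.996 times (knockdown) and 4.07 times (WT) the C1q-matched level. Of the members at 10 CPM or more in monocyte-macrophage cells, 79 of 81 (knockdown) and 65 of 82 (WT) stood above the C1q-matched level. Above 2 times that level stood 31 (knockdown) and 6 (WT). The neutrophil gate's cap on monocyte-macrophage markers, C1q among them, limits the C1q-matched level, so these multiples and counts depend on the gate.

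**Figure D4:**
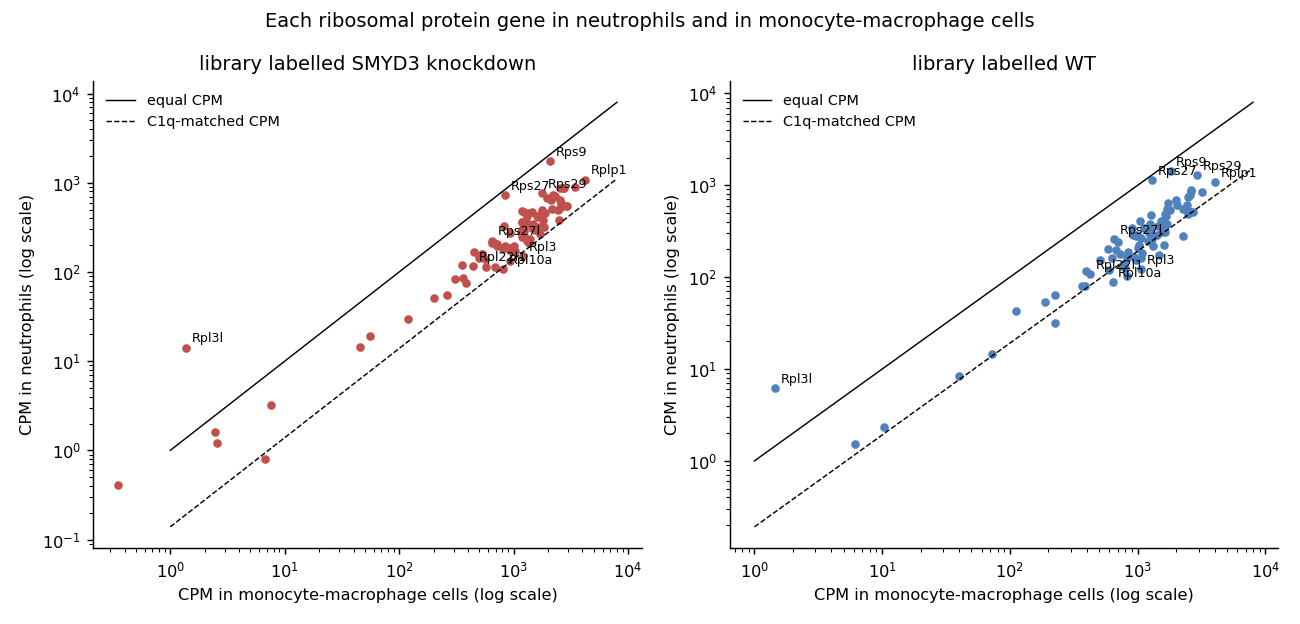
CPM of each ribosomal protein gene in neutrophils (vertical axis, log scale) against its CPM in monocyte-macrophage cells (horizontal axis, log scale), for the knockdown-labelled library (left) and the WT-labelled library (right). The solid line is equal CPM and the dashed line the level that monocyte-macrophage RNA would bring in the amount marked by C1q; Rps9 and Rps27 lie closest to the solid line among the abundant genes, Rpl3 lies under the dashed one, and Rpl3l lies above the solid line in both panels. Genes at 0 in either cell type are not drawn.

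The third gene called higher in neutrophils was Rpl3l, a paralog of Rpl3 known for expression in heart and skeletal muscle. It had 14.2 CPM (knockdown) and 6.17 CPM (WT) in neutrophils (35 UMIs knockdown and 8 UMIs WT) against 1.38 CPM (knockdown) and 1.45 CPM (WT) in monocyte-macrophage cells. It passed the filter on low counts only through the types in which it was high, which favours a call, so its fitted fold change and p are not given. The gene lies at chr17:24727820-24736143, and Msrb1, a methionine sulphoxide reductase gene, follows on the same strand with 498 bases between them. Msrb1 had 1774 CPM (knockdown) and 1543 CPM (WT) in neutrophils against 270 CPM (knockdown) and 234 CPM (WT) in monocyte-macrophage cells, so both neighbours were higher in neutrophils. In tumour-like cells Rpl3l had 17.3 CPM (knockdown) and 15.6 CPM (WT) and Msrb1 293 CPM (knockdown) and 303 CPM (WT), and in T cells Rpl3l had no UMI in either library. Whether reads of one gene were counted to the other was not tested.

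Dendritic cells had more of most members than monocyte-macrophage cells: 52 of 84 were higher and 1 was lower in edgeR's test, beside 24.5% and 25.2% of all genes. The median log2 fold change was 0.37, beside -0.01 for all genes. The count of 52 was 21 without the library block and 10 without the filter on low counts. Rps26, a small-subunit protein at the message exit, had 1525 CPM (knockdown) and 1817 CPM (WT) in dendritic cells against 938 CPM (knockdown) and 970 CPM (WT) in monocyte-macrophage cells, a log2 fold change of 0.85 ± 0.12 (SE, adjusted p = 2.7e-05 in edgeR's test). Rps27 followed at 0.74 and Rpsa at 0.72. Rpl3l, also counted as higher, had 10 UMIs (knockdown) and 9 UMIs (WT). The one lower member was Rpl22l1, the paralog of Rpl22, with 304 CPM (knockdown) and 309 CPM (WT) against 442 CPM (knockdown) and 424 CPM (WT) and a log2 fold change of -0.45 ± 0.11 (adjusted p = 0.0025 in edgeR's test), while Rpl22 itself was higher, with 1529 CPM (knockdown) and 1679 CPM (WT) against 1191 CPM (knockdown) and 1208 CPM (WT), a log2 fold change of 0.46.

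T cells, added to the fit after the data had been seen, had 38 of 84 members higher and 4 lower than monocyte-macrophage cells, beside 19.9% and 23.9% of 11526 genes. The paralogs Rps27 and Rps27l moved in opposite directions. Rps27 had 2154 CPM (knockdown) and 3550 CPM (WT) in T cells against 846 CPM (knockdown) and 1292 CPM (WT) in monocyte-macrophage cells, a log2 fold change of 1.15 ± 0.13 (SE, adjusted p = 9.1e-10 in edgeR's test). Rps27l, a p53-inducible gene in human cells, had 283 CPM (knockdown) and 360 CPM (WT) against 651 CPM (knockdown) and 657 CPM (WT), a log2 fold change of -1.27 ± 0.14 (adjusted p = 1.4e-09 in edgeR's test). Within the family's UMIs, Rps27 stood at 1.73 times (knockdown) and 1.75 times (WT) its monocyte-macrophage proportion and Rps27l at 0.296 times (knockdown) and 0.350 times (WT). Rps24 at 0.80, Rpl12 at 0.78 and Rps15a at 0.71 were among the next higher. Rpl7l1, a paralog of Rpl7, was lower at -0.83 on 32 UMIs (knockdown) and 31 UMIs (WT), Rps2 was lower at -0.38, and Rps4l was called on 1 UMI (knockdown) and none (WT).

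The Rps27 and Rps27l coding sequences are set out because the pair moved in opposite directions in T cells and because close copies can share reads. Both have 252 coding bases, of which 192 (76.2%) are identical and 60 differ, shown in capitals (Rps27 at chr3:90212522-90213651, minus strand; Rps27l at chr9:66946086-66949516, plus strand).
Rps27: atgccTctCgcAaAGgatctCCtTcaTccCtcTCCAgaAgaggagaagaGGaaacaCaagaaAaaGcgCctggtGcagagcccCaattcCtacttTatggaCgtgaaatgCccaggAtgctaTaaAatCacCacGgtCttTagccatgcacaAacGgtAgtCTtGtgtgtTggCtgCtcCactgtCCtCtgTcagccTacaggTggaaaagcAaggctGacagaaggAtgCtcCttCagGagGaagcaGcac
Rps27l: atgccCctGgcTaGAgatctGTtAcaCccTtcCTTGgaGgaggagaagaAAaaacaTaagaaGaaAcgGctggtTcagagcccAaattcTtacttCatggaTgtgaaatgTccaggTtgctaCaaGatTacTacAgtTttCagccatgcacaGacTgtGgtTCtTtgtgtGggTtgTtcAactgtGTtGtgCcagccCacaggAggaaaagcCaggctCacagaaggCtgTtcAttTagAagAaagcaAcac
Between the libraries the pair also separated: in monocyte-macrophage cells Rps27 had a ratio of 0.655 (0.648 to 0.661), while Rps27l had 651 CPM in the knockdown-labelled library and 657 CPM in the WT-labelled library.

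**Figure D5:**
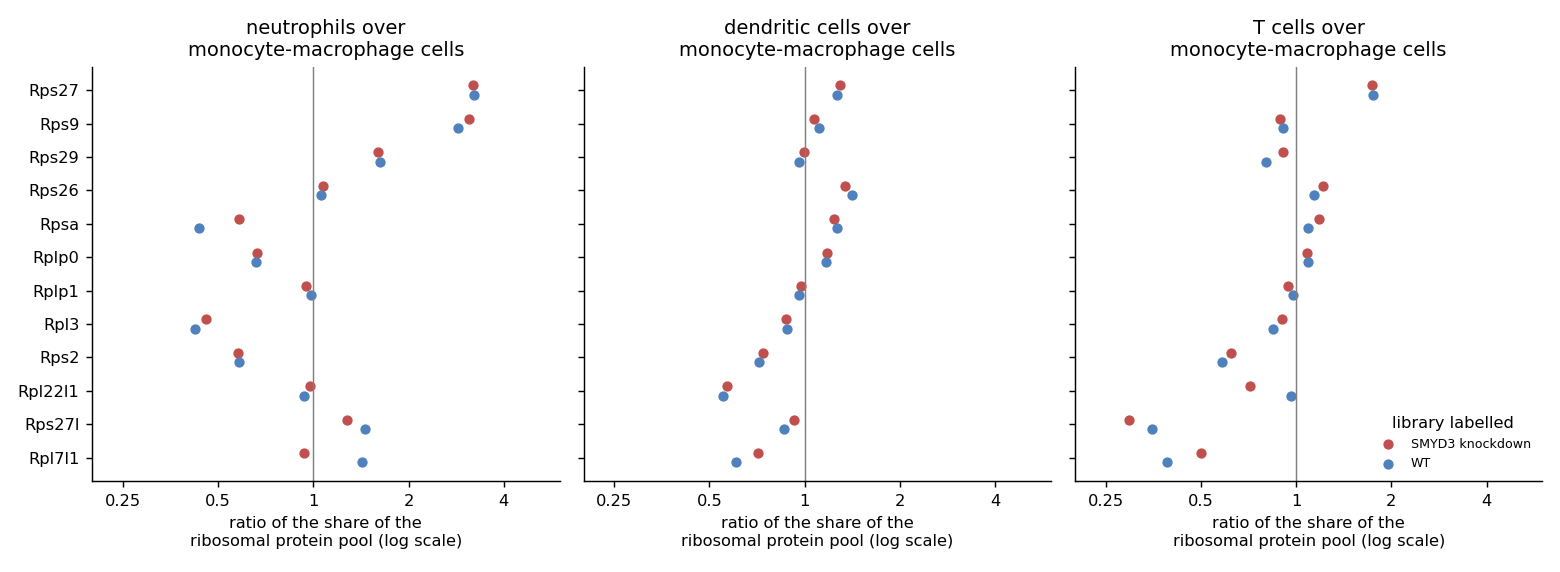
Proportion of the family's UMIs held by 12 named genes in neutrophils, dendritic cells and T cells, divided by the proportion in monocyte-macrophage cells (horizontal axis, log scale), for the knockdown-labelled library (red) and the WT-labelled library (blue). Rps27 lies right of 1 in all 3 panels, Rps9 and Rps29 lie right of 1 in neutrophils, and Rps27l lies furthest left in T cells.

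The remaining named members followed the family. Rplp1, the acidic stalk protein and the member with the most UMIs, had 1078 CPM (knockdown) and 1077 CPM (WT) in neutrophils against 4234 CPM (knockdown) and 4046 CPM (WT) in monocyte-macrophage cells, and kept its proportion of the pool, at 3.64% (knockdown) and 3.69% (WT) against 3.85% (knockdown) and 3.76% (WT). The other members of highest level over all kept cells were Rpl23 (3369 CPM knockdown and 3174 CPM WT), Rpl32 (2806 knockdown and 2692 WT), Rps12 (2701 knockdown and 2545 WT) and Rps14 (2646 knockdown and 2594 WT), all within 1.5-fold between the libraries. Rplp0, the stalk base, had 171 CPM (knockdown) and 167 CPM (WT) in neutrophils and 1362 CPM (knockdown) and 1447 CPM (WT) in dendritic cells, against 954 CPM (knockdown) and 938 CPM (WT) in monocyte-macrophage cells. Rplp2 had a neutrophil log2 fold change of -0.79. Among paralogs, Rpl36al and Rpl22l1 fell in neutrophils by 0.98 and 1.03 on the log2 scale, beside 1.64 for Rpl36a and 1.36 for Rpl22. Rpl39l and Rpl10l, both known from testis, stood under 1 CPM over all kept cells. Counts of members with near-identical processed copies, such as Rpl26 at 54.8 CPM (knockdown) and 73.4 CPM (WT) and Rpl29 at 44.2 CPM (knockdown) and 39.1 CPM (WT) over all kept cells, are uncertain because the split of reads among copies is not recorded.

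Most genes of the other lists of the translation machinery were also lower in neutrophils. In edgeR's test 14 of 15 translation factors, 21 of 21 ribosome biogenesis genes and 66 of 78 mitochondrial ribosomal proteins were lower there than in monocyte-macrophage cells, with medians of -1.24, -1.98 and -1.13 log2, beside 39.6% of all genes. Of the 3 ribosomal proteins whose names fall outside the rule, 2 were lower and 1 was higher. The higher one, Fau, had 2213 CPM (knockdown) and 2230 CPM (WT) in neutrophils against 2330 CPM (knockdown) and 2319 CPM (WT) in monocyte-macrophage cells. It was higher by 0.85 ± 0.14 log2 on the TMM scale (SE, adjusted p = 5.6e-05 in edgeR's test) and lower in CPM, so its direction turned with the scaling. In dendritic cells 6 of 15 translation factors and 2 of 21 biogenesis genes were higher and none was lower, beside 24.5% of all genes higher, while 26 of 78 mitochondrial ribosomal proteins were lower and 1 was higher, beside 25.2% of all genes lower. In T cells 5 of 15 translation factors were higher and 1 was lower, beside 19.9% of all genes higher. There 27 of 78 mitochondrial ribosomal proteins and 8 of 21 biogenesis genes were lower, beside 23.9% of all genes. The difference between the lists was not tested.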

How the data were processed

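Droplet single-cell RNA-seq (10x Genomics) was run on 1 library per label. The deposited matrix holds raw UMI counts per gene and barcode, made by the authors with Cell Ranger 7.1.0, per the file headers. The submitters' processing notes give mm10 as the build; the annotation and chemistry are not given in the sources used here. Barcodes were tied to libraries through the deposited barcode table. Barcodes with at least 200 genes, 500 UMIs and at most 20% mitochondrial UMIs were kept, and 22 sequences found in both libraries were left out. Cell types were gated by the number of listed markers with a UMI (neutrophil at least 4 of 9, monocyte-macrophage 5 of 12, dendritic 4 of 11, T cell 4 of 11, tumour-like 4 of 8), with caps on markers of other types. Cells with markers of more than 1 type (295 knockdown and 242 WT) were left out in place of a doublet caller, and 812 (knockdown) and 669 (WT) cells met no gate. Gate minimums were set after the files had been examined. UMIs were summed per type and library, and CPM, shares and ratios were computed in Python 3.11.15 without a pseudocount. Cell types were compared with edgeR 4.0.16 (TMM, filterByExpr, library as a block), with DESeq2 1.42.0 as an alternative, and the code was tested on simulated data. Coordinates and coding lengths came from GENCODE vM21, promoters from RefSeq. Genes were named by a rule: the 5 members of highest level, paralogs with their counterparts, Rpsa and the stalk proteins, and up to 5 members each way per comparison; Snhg8, Nolc1, Myc and Eef1g came from the largest differences of their lists. Some genes are not reported here. The members and lists were chosen with earlier results of these data known. In the fit the cell types of a library share its block, which pairs the types by cells from the same library.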

Additional observations from a re-analysis of the deposited data

Results flagged for a closer look

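The knockdown-over-WT ratio of the ribosomal protein share pointed one way in monocyte-macrophage cells, at 1.02, and the other way in dendritic cells, at 0.936, and in T cells, at 0.958. With 1 library per label the difference between cell types was not tested. All 3 dendritic subsets lay below 1, at 0.958, 0.943 and 0.871, whereas T cells with CD8 lay at 1.01 and T cells with Cd4 at 0.833, on 22 cells in each library.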

How the results depend on the processing

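The neutrophil share (2.96% knockdown and 2.92% WT) was 2.83% (knockdown) and 2.72% (WT) under a stricter gate, 2.81% (knockdown) with each cell weighing the same, 2.93% (knockdown) and 2.89% (WT) without the barcode filter, 2.69% (knockdown) and 2.78% (WT) after thinning to 1000 UMIs a cell and 3.01% (knockdown) and 2.98% (WT) without mitochondrially encoded genes in the denominator. The monocyte-macrophage share was 11.0% (knockdown) under the stricter gate, 10.6% (knockdown) and 10.5% (WT) with each cell weighing the same, 11.0% (knockdown) and 10.7% (WT) without the barcode filter, 10.7% (knockdown) and 10.5% (WT) after thinning and 11.2% (knockdown) and 10.9% (WT) without mitochondrial genes. The dendritic share was 13.9% (knockdown) and 14.7% (WT) under the stricter gate, 13.1% (knockdown) and 14.4% (WT) with each cell weighing the same, 13.2% (knockdown) after thinning, and 13.5% (knockdown) and 14.4% (WT) without mitochondrial genes. The T cell share was 16.8% (knockdown) under the stricter gate, 16.01% (knockdown) and 17.3% (WT) with each cell weighing the same, 17.3% (WT) after thinning, and 16.4% (knockdown) and 17.1% (WT) without mitochondrial genes. The knockdown-over-WT ratio under the stricter gate was 1.04 in neutrophils, 0.949 in dendritic cells and 0.992 in T cells. After thinning it was 0.969 in neutrophils, 1.02 in monocyte-macrophage cells, 0.921 in dendritic cells and 0.936 in T cells. With each cell weighing the same it was 0.965 in neutrophils, 1.01 in monocyte-macrophage cells, 0.912 in dendritic cells and 0.926 in T cells. Of 20 alternative ratios in these 4 types, 18 kept their side of 1. The tumour-like ratio was 0.946 after thinning and 0.936 as a mean over cells. The cause of the neutrophil and tumour-like turns was not tested.

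Counts of members at least 1.5-fold apart stayed within 1.5 times in neutrophils, monocyte-macrophage and dendritic cells under the median-ratio scaling, the stricter gate and no filter. The count of members higher in neutrophils was 1 without TMM factors, against 3. The count of members higher in dendritic cells was 10 without the filter and 21 with no replicate block, against 52 with the library as a block; no other count moved by over 1.5 times without the block. With 1 library left no test was made: the members' median log2 fold change was between -1.23 and -0.95 in neutrophils and between 0.32 and 0.42 in dendritic cells. Depth limits members under 10 CPM, for which no ratio is given between libraries.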
